A study of Mus musculus with 8 samples.

Results

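Elastic fibers give tissues recoil. The genes described here encode elastin (Eln) and the proteins of the microfibril scaffold and fiber surface. These are the fibrillins Fbn1 and Fbn2, the microfibril-associated proteins Mfap2, Mfap4 and Mfap5, the fibulins Fbln1, Fbln2 and Fbln5, and the elastin-interface protein Emilin1. The 10 genes were named by family, with earlier results of these data known. Each was represented by the probe set of highest mean signal among those annotated with that gene symbol alone. Such a probe set was present for 9 of the 10 genes, among 19937 named genes with 1 probe set each, and each of the 9 genes had a mean log2 signal of at least 4.0. Fbn1 was not analysed here. The 8 tumors grew from 4T1 cells, an established mammary carcinoma line of BALB/c origin that forms metastasizing tumors, placed into the mammary gland of BALB/c mice. In 4 of them (preirradiated, IRR+4T1) the fourth mammary gland had received 1 local X-ray dose of 20 Gy before the cells were placed, and in 4 (nonirradiated, 4T1) it had not. Both groups carried the same cell line, were left to grow for 18 days, and kept the host's own stroma and immune cells. The comparison asks what bed irradiation before implantation does to tumor transcripts.

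Microfibrils are built from fibrillin and form the template on which tropoelastin is deposited. Fibulins carry tropoelastin and crosslinking enzymes to that template, and lysyl oxidases join tropoelastin into an insoluble fiber. Fibroblasts and smooth muscle cells are the usual producers of these proteins, and fibrillin microfibrils also hold latent TGF-beta in the matrix.

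Signals are log2 RMA values from whole tumor tissue, summarised per group as mean ± SD (n = 4), and a difference is preirradiated minus nonirradiated on that scale. Signals of different probe sets are not compared, because probes bind with different strength. The array medians lay between 5.94 and 5.98 on the log2 scale in nonirradiated tumors and at 5.98 or just above in preirradiated tumors. The carcinoma keratins were present in every tumor, with Krt8 signals between 12.45 and 12.63. Preirradiated tumors 1 and 3 stood apart in skeletal muscle genes, whose list mean was 8.56 and 9.99 there and between 5.89 and 6.15 in the other 6 tumors. Differences without these 2 tumors are therefore given for the 9 genes and for many of the other genes and lists. Whether the tumors of a group grew in different mice is not stated in the labels, so p-values measure the spread between these tumors, which may be technical.

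All 9 measured genes had a higher mean in preirradiated tumors, where 47.4% of all named genes did, and their median difference was 0.29, against a median of -0.0038 over all named genes. Because the list was chosen with earlier results of these data known, its contrasts with all named genes are a description and no test. None of the 9 passed a Benjamini-Hochberg adjusted p of 0.05 in limma, where 0% of all probe sets did. At an unadjusted p under 0.05 there were 5 genes, all higher (Mfap5, Fbln2, Fbn2, Emilin1 and Mfap2), where 2.39% of named genes were called in that direction. The study's own filter asks for an unadjusted p of at most 0.05, a difference of at least 0.4 and a mean signal of at least 4.0. It was passed by Mfap5 alone, and by 0.346% of named genes as higher. In 3 genes, Mfap5, Fbn2 and Fbln2, every preirradiated tumor lay above every nonirradiated tumor, which held for 1.7% of named genes in that direction. Without preirradiated tumors 1 and 3 the median difference was 0.11, and without preirradiated tumor 3 alone it was 0.18. Because the tissue was measured in bulk, more producing cells and more RNA per cell cannot be told apart.

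**Figure D1:**
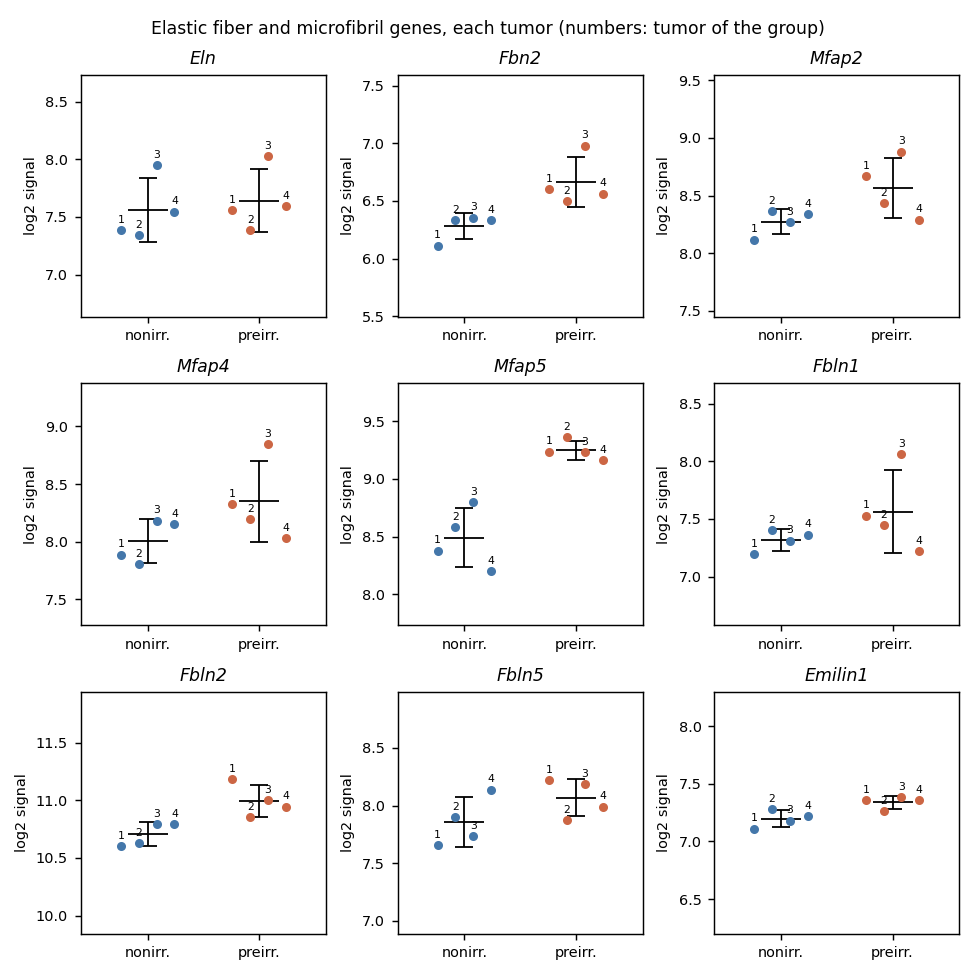
Log2 RMA signal (vertical axes, each spanning the same range of log2 units) of the 9 measured genes in the 4 nonirradiated (blue) and 4 preirradiated (orange) tumors, numbered within their group; bars are mean ± SD. The groups are apart in Mfap5, Fbn2 and Fbln2 and overlap in the other 6 genes, with preirradiated tumor 3 the highest in Eln, Fbn2, Mfap2, Mfap4, Fbln1 and Emilin1.

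Mfap5, a small microfibril-associated glycoprotein that binds fibrillins, integrins and Notch ligands, differed most. Its signal was 8.38, 8.58, 8.80 and 8.20 in nonirradiated tumors 1 to 4 and 9.24, 9.36, 9.23 and 9.16 in preirradiated tumors 1 to 4. The preirradiated tumors lay close together and above all nonirradiated tumors, which spread more widely. The means were 9.25 ± 0.082 and 8.49 ± 0.26 (n = 4 each), a difference of 0.76 (95% interval 0.48 to 1.03) or 1.69-fold, with a limma unadjusted p of 1.9e-04 and an adjusted p of 0.595. This difference was larger than that of 99.8% of named genes. It did not rest on the tumors high in muscle genes: it was 0.77 without preirradiated tumors 1 and 3, and leaving out any 1 tumor kept it between 0.66 and 0.86.

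Mfap2, the other gene of this small glycoprotein family, is likewise a fibrillin-binding component of microfibrils. Its signal was 8.12, 8.36, 8.27 and 8.34 in nonirradiated tumors 1 to 4 and 8.67, 8.43, 8.88 and 8.29 in preirradiated tumors 1 to 4. Preirradiated tumor 4 lay inside the nonirradiated range, and the other 3 lay above it. The difference was 0.29 (95% interval 0.0090 to 0.58), with a limma unadjusted p of 0.0446 and an adjusted p of 0.850. That unadjusted p ran from 0.00938 without preirradiated tumor 4 to 0.112 without nonirradiated tumor 1. Without preirradiated tumors 1 and 3 the difference was 0.088.

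The log2 ratio of Mfap5 to Mfap2 within a tumor was set between the groups after these values had been seen. It was 0.26, 0.22, 0.52 and -0.14 in nonirradiated tumors 1 to 4 and 0.57, 0.93, 0.35 and 0.87 in preirradiated tumors 1 to 4. Preirradiated tumor 3 lay inside the nonirradiated range, and the other 3 lay above it. The ratio differed by 0.46 between the groups (exact two-sided permutation p = 0.0571, adjusted p = 0.0857 over 3 gene pairs). These p-values do not account for the choice of pairs after the values were seen, and are a description. A larger change of Mfap5 than of Mfap2 was not established. The smallest p that the 70 assignments of 8 tumors can give is 0.0286.

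Mfap4, a fibrinogen-related glycoprotein that binds elastin and collagen, had a signal of 7.89, 7.80, 8.18 and 8.15 in nonirradiated tumors 1 to 4 and 8.33, 8.20, 8.85 and 8.03 in preirradiated tumors 1 to 4. Preirradiated tumor 4 lay among the nonirradiated tumors, and preirradiated tumor 3 stood highest. The difference was 0.34 (95% interval -0.052 to 0.74, limma unadjusted p = 0.0805), and 0.11 without preirradiated tumors 1 and 3.

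Fbn2 encodes fibrillin-2, the fibrillin best known from developing tissue. Its signal was 6.11, 6.34, 6.36 and 6.33 in nonirradiated tumors 1 to 4 and 6.60, 6.50, 6.98 and 6.56 in preirradiated tumors 1 to 4. The groups did not overlap, with nonirradiated tumor 1 low and preirradiated tumor 3 high. These signals were not far above 5.97, the median of all probe set means. The means were 6.66 ± 0.22 and 6.28 ± 0.11, a difference of 0.38 (95% interval 0.13 to 0.63) or 1.30-fold, with a limma unadjusted p of 0.0080 and an adjusted p of 0.763. Among the 9 genes this was the difference nearest below the 0.4 limit of the study's filter, with Mfap5 the 1 gene above that limit. Fbn2 passed the filter when nonirradiated tumor 3 (0.400), preirradiated tumor 2 (0.43) or preirradiated tumor 4 (0.41) was left out. Without preirradiated tumors 1 and 3 the difference was 0.25.

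Eln, the elastin precursor itself, differed least. Its signal was 7.39, 7.34, 7.95 and 7.55 in nonirradiated tumors 1 to 4 and 7.56, 7.39, 8.03 and 7.59 in preirradiated tumors 1 to 4. The groups overlapped almost wholly, and the highest tumor of each group was its tumor 3. The means were 7.64 ± 0.27 and 7.56 ± 0.28, a difference of 0.084 (limma unadjusted p = 0.631), which turned to -0.045 without preirradiated tumor 3. The 95% interval of -0.30 to 0.47 leaves room for a change in either direction. The log2 ratio of Mfap5 to Eln, also chosen after the values were seen, differed by 0.67 (exact two-sided permutation p = 0.0571, adjusted p = 0.0857 over 3 gene pairs). That ratio was 0.99, 1.24, 0.84 and 0.65 in nonirradiated tumors 1 to 4 and 1.68, 1.97, 1.20 and 1.57 in preirradiated tumors 1 to 4. Preirradiated tumor 3 again lay inside the nonirradiated range, and the other 3 lay above it.

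**Figure D2:**
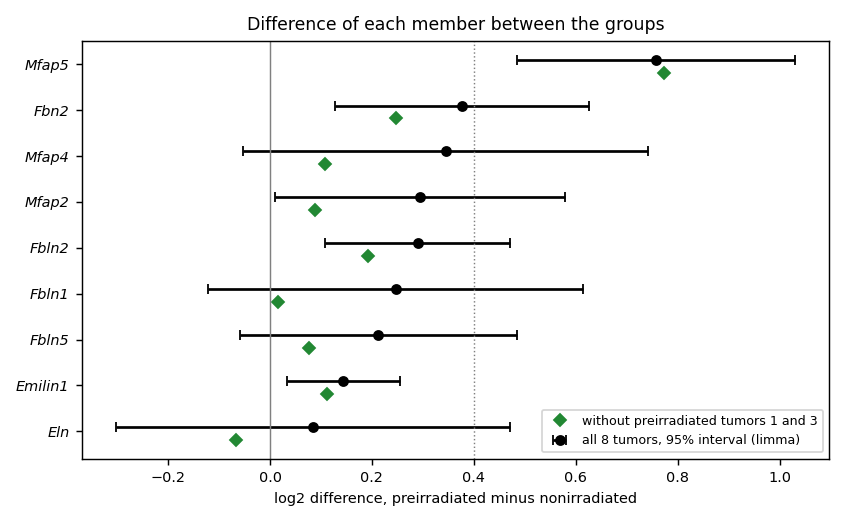
Log2 difference of each of the 9 genes, preirradiated minus nonirradiated (horizontal axis), with its 95% limma interval over all 8 tumors (black) and without preirradiated tumors 1 and 3 (green); the dotted line is the 0.4 limit of the study's filter. Mfap5 is at 0.76 and 0.77, while Eln goes from 0.084 to -0.067.

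Among the fibulins, Fbln2, which binds fibronectin, tropoelastin and basement membrane proteins, was the gene with groups apart. Its signal was 10.60, 10.63, 10.80 and 10.79 in nonirradiated tumors 1 to 4 and 11.18, 10.85, 11.00 and 10.95 in preirradiated tumors 1 to 4. The gap between the groups was narrow, from 10.80 to 10.85. The means were 11.00 ± 0.14 and 10.71 ± 0.10, a difference of 0.29 (95% interval 0.11 to 0.47) or 1.22-fold, with a limma unadjusted p of 0.00604 and an adjusted p of 0.720. It was 0.19 without preirradiated tumors 1 and 3 (unadjusted p = 0.0464).

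Fbln1, which binds fibronectin and lies within elastic fibers, had a signal of 7.19, 7.40, 7.31 and 7.36 in nonirradiated tumors 1 to 4 and 7.53, 7.44, 8.06 and 7.22 in preirradiated tumors 1 to 4. Preirradiated tumor 4 lay among the nonirradiated tumors, and preirradiated tumor 3 stood far above all others. The difference was 0.25 (95% interval -0.12 to 0.61, limma unadjusted p = 0.161), and 0.015 without preirradiated tumors 1 and 3. The log2 ratio of Fbln2 to Fbln1, the last pair chosen after the values were seen, differed by 0.043 between the groups (exact two-sided permutation p = 0.914). The sign of this difference turned when some single tumors were left out.

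Fbln5 carries tropoelastin and the crosslinking enzyme LOXL1 to the growing fiber. Its signal was 7.65, 7.90, 7.73 and 8.14 in nonirradiated tumors 1 to 4 and 8.22, 7.88, 8.19 and 7.99 in preirradiated tumors 1 to 4. Both groups reached nearly the same height, since nonirradiated tumor 4 lay above preirradiated tumors 2 and 4. The difference was 0.21 (95% interval -0.059 to 0.48, limma unadjusted p = 0.110), and 0.077 without preirradiated tumors 1 and 3.

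Emilin1 lies at the interface of elastin and microfibrils and limits TGF-beta maturation. Its signal was 7.11, 7.28, 7.18 and 7.22 in nonirradiated tumors 1 to 4 and 7.36, 7.26, 7.39 and 7.36 in preirradiated tumors 1 to 4. Preirradiated tumor 2 lay just below nonirradiated tumor 2, and all other tumors were in the order of their groups. The spread within groups was small, with means of 7.34 ± 0.056 and 7.20 ± 0.071, so that a difference of 0.14 (95% interval 0.033 to 0.25) or 1.10-fold had a limma unadjusted p of 0.0172 and an adjusted p of 0.809. Without preirradiated tumors 1 and 3 it was 0.11 (unadjusted p = 0.132).

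Upstream sequences of genes at an unadjusted p under 0.05 are shown to set genes that were higher together side by side. Starts were taken from RefSeq's table for build GRCm38.p6, with those on 1 chromosome left out. Starts were taken for 5 of the 9 measured genes. Mfap5 and Fbn2, also under that p, have no window here, which does not mean that the table lacks a start for them. Each line gives the 250 bases before the annotated start (for Mfap2, the first start listed), 5′ to 3′ on the strand of the gene, which is the plus strand in all 3. Capitals mark matches to GGGCGG or CAGAC on either strand, and no match overlapped another. The windows are chr4:141010431-141010680 for Mfap2, chr6:91212514-91212763 for Fbln2 and chr5:30913536-30913785 for Emilin1.
Mfap2: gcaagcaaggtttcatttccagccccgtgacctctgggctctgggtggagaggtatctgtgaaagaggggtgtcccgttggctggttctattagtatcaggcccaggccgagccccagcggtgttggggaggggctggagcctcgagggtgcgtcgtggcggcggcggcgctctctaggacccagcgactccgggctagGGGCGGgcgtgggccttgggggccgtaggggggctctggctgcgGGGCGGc
Fbln2: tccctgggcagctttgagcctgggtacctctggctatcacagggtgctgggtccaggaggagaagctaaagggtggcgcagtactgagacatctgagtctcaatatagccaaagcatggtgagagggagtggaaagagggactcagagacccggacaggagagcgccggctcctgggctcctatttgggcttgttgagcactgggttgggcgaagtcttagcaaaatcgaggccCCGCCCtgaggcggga
Emilin1: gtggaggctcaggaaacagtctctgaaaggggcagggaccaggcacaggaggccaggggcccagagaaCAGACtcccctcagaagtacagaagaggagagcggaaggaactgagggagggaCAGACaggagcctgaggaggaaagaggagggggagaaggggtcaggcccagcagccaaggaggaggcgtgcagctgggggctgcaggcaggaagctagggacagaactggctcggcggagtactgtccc
The letters GGGCGG, the core of the GC box, occurred in 2 places before Mfap2, in 1 place before Fbln2 and not in the Emilin1 window, and 32.7% of 32851 windows of this length in the table held them. The letters CAGAC, a SMAD-type core, occurred in 2 places before Emilin1 and in neither other window, against 42.2% of all windows. The AP-1 letters TGANTCA (6.75% of all windows), the TEAD letters GGAATG (12.6%) and the letters TATAAA (12.4%) were in none of the 3 windows printed. The GC content was 68.8% for Mfap2, 58.8% for Fbln2 and 63.2% for Emilin1, with a median of 52.4% over all windows. The table lists another start for Mfap2, whose window (chr4:141010174-141010423, plus strand) held CAGAC and GGAATG in 1 place each and no GGGCGG, so what the windows share depends on the start taken.

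The 9 genes also varied among tumors of 1 group. Preirradiated tumor 3 had the highest signal of all 8 tumors in 6 of the 9 genes, and nonirradiated tumor 1 had the lowest in 6 of 9. The number of genes in which a preirradiated tumor lay above all nonirradiated tumors was 9 in tumor 3, 8 in tumor 1, 6 in tumor 2 and 4 in tumor 4. The median distance from the nonirradiated mean, on the log2 scale, was 0.32, 0.15, 0.61 and 0.13 in preirradiated tumors 1 to 4 and lay between -0.13 and 0.071 in nonirradiated tumors. Mfap5 followed the other genes least within the groups: after the group means were removed, its correlation with the mean of the other 8 scaled genes was -0.019 over the 8 tumors, where that of Fbn2 was 0.93, of Mfap2 0.89, of Mfap4 0.83, of Fbln1 0.82 and of Eln 0.66. Fbln5, Emilin1 and Fbln2 were between, at 0.56, 0.54 and 0.52. These correlations describe the same 8 arrays and carry no test.

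The markers of several cell types, though not of all those listed, moved with the groups or with single tumors. For fibroblasts 16 of 16 listed markers were measured and 14 were higher, where 47.4% of named genes were. The study's filter was passed by 5 of them, against 0.346% of named genes as higher, and 6 had groups apart as higher, against 1.7%. The list mean lay between 9.16 and 9.35 in nonirradiated and between 9.45 and 9.78 in preirradiated tumors. Its median difference, 0.30, was about that of the 9 elastic fiber genes, and 0.14 without preirradiated tumors 1 and 3. For smooth muscle and pericytes 10 of 11 markers were higher, with a list mean between 7.41 and 7.49 in nonirradiated and between 7.55 and 7.77 in preirradiated tumors, and a median difference of 0.17, or 0.15 without preirradiated tumors 1 and 3. All 16 skeletal muscle markers were higher on average, but their median difference of 1.61 was -0.0047 without preirradiated tumors 1 and 3. The adipocyte list (10 of 11 measured) had its highest mean, 8.14, in preirradiated tumor 1 and lay between 6.34 and 6.83 in nonirradiated tumors, and its median difference of 0.48 was 0.067 without preirradiated tumors 1 and 3. The skin list (5 of 7 measured) was highest in preirradiated tumor 3, at 6.21, and in nonirradiated tumor 4, at 6.07. The macrophage list was lower in all 10 members, where 47.4% of all named genes were higher. Its mean lay between 10.43 and 10.53 in preirradiated and between 10.54 and 10.69 in nonirradiated tumors. The endothelial list mean overlapped between the groups, from 8.65 to 8.88 in nonirradiated and from 8.72 to 8.99 in preirradiated tumors. The epithelial list did too, from 8.80 to 9.29 and from 9.12 to 9.43, with a median difference of 0.24, or 0.40 without preirradiated tumors 1 and 3. The part of these cell types in the elastic fiber result was not tested.

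**Figure D3:**
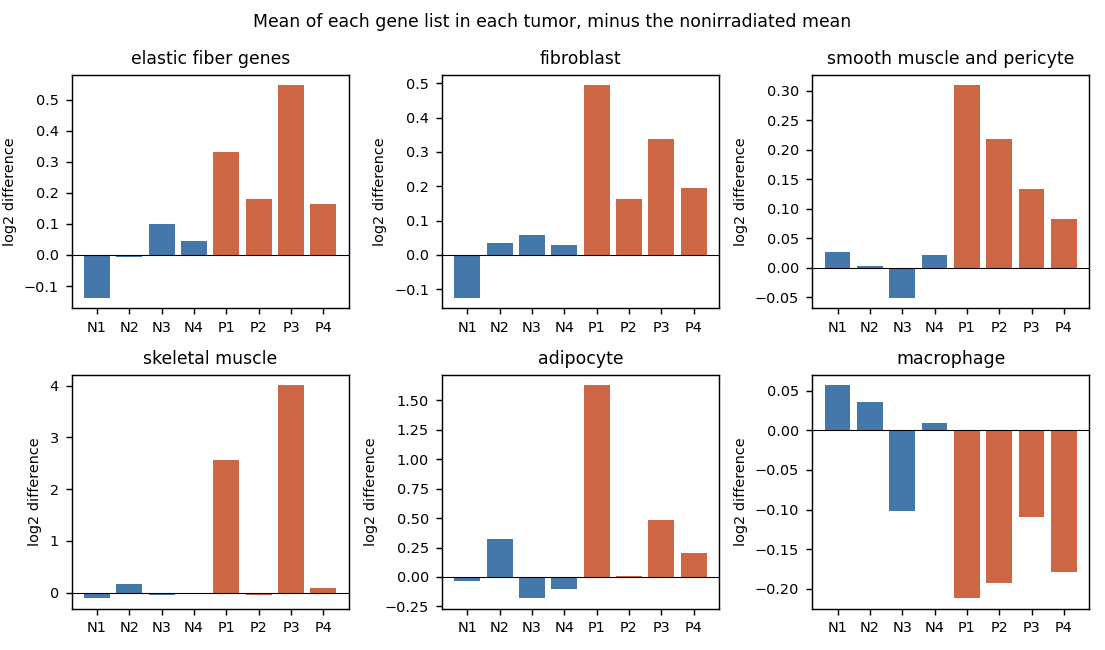
Mean log2 signal of the 9 elastic fiber genes and of 5 marker lists in nonirradiated (N1 to N4, blue) and preirradiated (P1 to P4, orange) tumors, minus the nonirradiated mean; each panel has its own vertical scale. The elastic fiber and fibroblast means are highest in P1 and P3, the tumors with high skeletal muscle genes, and are still above all nonirradiated tumors in P2 and P4.

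Beyond the 9 genes, the enzymes that crosslink elastin and collagen were uneven. Of 5 listed, 4 were measured, and Lox and Loxl1 passed the study's filter as higher, where 0.346% of named genes did, with 0 past the adjusted threshold. The Lox signal was 8.28, 8.54, 9.30 and 8.64 in nonirradiated tumors 1 to 4 and 9.79, 9.32, 9.72 and 9.13 in preirradiated tumors 1 to 4. Preirradiated tumor 4 lay below nonirradiated tumor 3, and the difference was 0.80 (95% interval 0.27 to 1.33, limma unadjusted p = 0.0082), or 0.54 without preirradiated tumors 1 and 3, where Lox no longer passed the filter (unadjusted p = 0.0895). Loxl1, which acts with fibulin-5 on elastin, had signals of 8.13, 8.12, 8.21 and 8.21 in nonirradiated and of 8.93, 8.73, 8.78 and 8.43 in preirradiated tumors 1 to 4, with groups apart and a difference of 0.55, or 0.41 without preirradiated tumors 1 and 3. Loxl3 and Loxl4 differed by -0.047 and 0.065 (limma unadjusted p = 0.417 and 0.639), and both signs turned without preirradiated tumors 1 and 3.

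The latent TGF-beta binding proteins, relatives of the fibrillins, were not higher as a group. Of 4 measured, 3 had a lower mean in preirradiated tumors, 0 passed the study's filter, and the median difference was -0.080. Ltbp4, which also helps fibulin-5 to deposit elastin, had a signal of 10.12, 10.46, 10.35 and 10.47 in nonirradiated tumors 1 to 4 and 10.20, 10.12, 10.06 and 10.11 in preirradiated tumors 1 to 4. Nonirradiated tumor 1 lay among the preirradiated tumors, and the difference was -0.23 (95% interval -0.41 to -0.051, limma unadjusted p = 0.0180). Ltbp1, which binds latent TGF-beta to fibrillin, differed by -0.098 (unadjusted p = 0.0195) with every preirradiated tumor below every nonirradiated tumor. An unadjusted p under 0.05 as lower was reached by 3.27% of named genes, and groups apart as lower by 1.95%. Ltbp2 and Ltbp3 differed by -0.062 and 0.013 (unadjusted p = 0.427 and 0.823), and the sign of Ltbp3 turned in 4 of 18 alternatives.

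**Figure D4:**
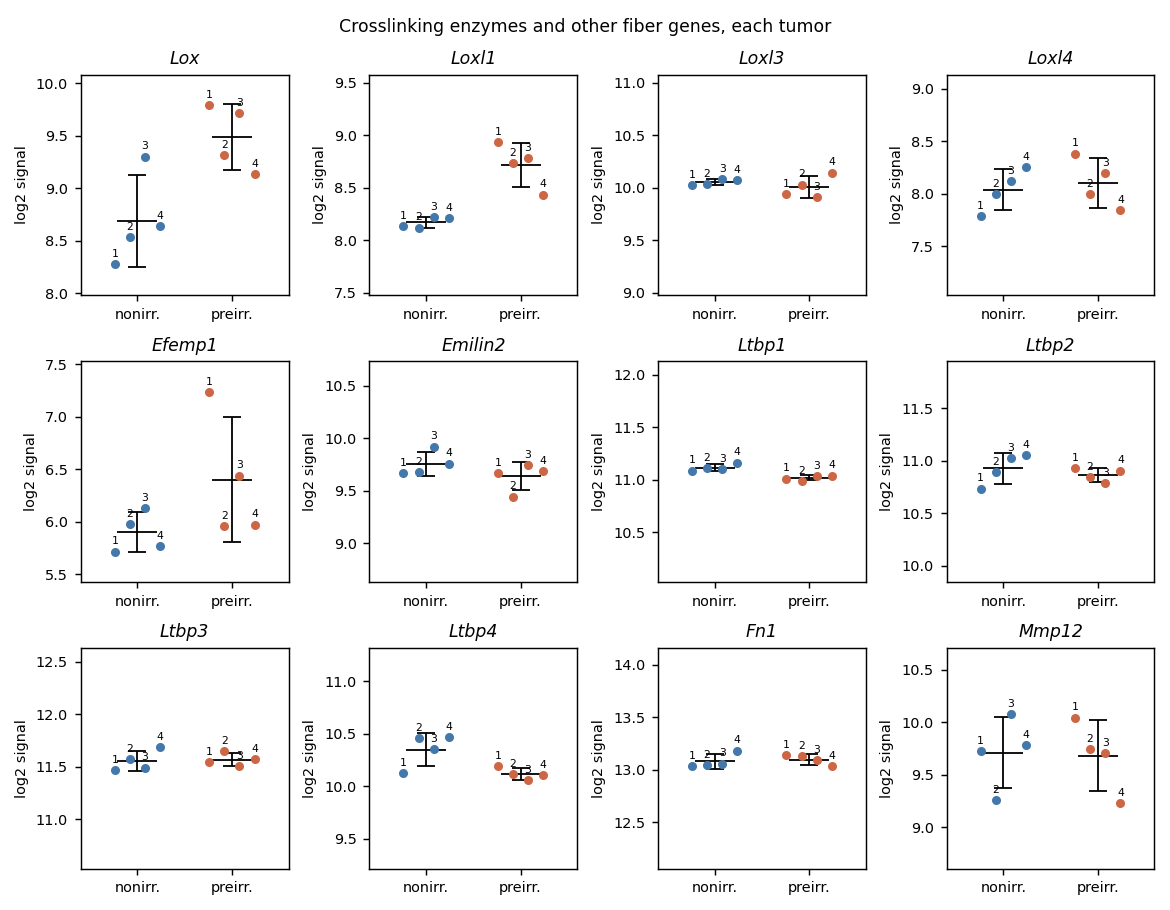
Log2 RMA signal of 12 genes that act with elastic fibers in nonirradiated (blue) and preirradiated (orange) tumors, numbered within their group; each vertical axis spans the same range of log2 units and bars are mean ± SD. The groups are apart upward in Loxl1 and downward in Ltbp1.

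Other genes of the pathway are given by list. Of the remaining fibulins, EMILINs and multimerins 7 of 8 were measured, 6 were higher, 0 passed the study's filter and the median difference was 0.085. Among these, Efemp1, a fibulin of the matrix, was 7.24 in preirradiated tumor 1 and between 5.72 and 6.44 in the other 7 tumors, a difference of 0.50 (95% interval -0.12 to 1.12) that came to 0.067 without preirradiated tumors 1 and 3. Emilin2 differed by -0.12 (95% interval -0.30 to 0.066). For other microfibril and fiber-associated proteins 22 gene names were listed, not all of which need be separate mouse genes. Of these 17 were measured, 13 were higher and the median difference was 0.039. The study's filter was passed by 1, against 0.346% of named genes as higher. That gene, named after its values were seen, was Vcan, the proteoglycan versican, which binds fibrillin, at 7.50, 7.59, 7.98 and 7.83 in nonirradiated tumors 1 to 4 and 8.70, 8.17, 8.64 and 8.13 in preirradiated tumors 1 to 4. The Vcan groups were apart and differed by 0.68 (95% interval 0.31 to 1.05, limma unadjusted p = 0.0028), or 0.42 without preirradiated tumors 1 and 3. Thsd4, an ADAMTS-like protein that binds fibrillin microfibrils, went the other way, at 7.39, 7.38, 7.32 and 7.55 in nonirradiated and 7.23, 7.20, 7.04 and 7.16 in preirradiated tumors 1 to 4. It differed by -0.25 (95% interval -0.40 to -0.11, limma unadjusted p = 0.0033) with groups apart, and is named here after its values were seen. Fn1, the fibronectin on which microfibrils assemble, differed by 0.018 (95% interval -0.089 to 0.12), and by -0.016 with each array centred on its median.

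Receptors, proteases and inhibitors of the system showed no common direction. Of 11 receptors of elastin, fibrillin and fibulins 5 were higher and 6 lower, 0 passed the study's filter and the median difference was -0.028. An unadjusted p under 0.05 in limma was reached by 3 receptors, all as higher, where 2.39% of named genes were called in that direction. In 3 receptors the groups were apart as higher, against 1.7% of named genes. Of 12 elastin-degrading proteases 4 were higher and 8 lower, again with 0 past the filter and a median of -0.034, and 1, Mmp2, had an unadjusted p under 0.05, as higher, with a difference of 0.37, or 0.16 without preirradiated tumors 1 and 3. The macrophage elastase Mmp12 was between 9.23 and 10.08 in all tumors and differed by -0.030 (95% interval -0.50 to 0.44), a sign that turned without nonirradiated tumor 3 or preirradiated tumor 4. Of 6 measured protease inhibitors, from 7 listed, 3 were higher and 3 lower. In limma 2 of them, Timp1 and A2m, had an unadjusted p under 0.05, both as higher. A2m, named after its values were seen, differed by 0.30 (95% interval 0.13 to 0.47, limma unadjusted p = 0.0038) with groups apart. Timp1, an inhibitor of matrix metalloproteases, was the 1 inhibitor past the filter, which 0.346% of named genes passed as higher. It is named after its values were seen, with a difference of 0.44 (95% interval 0.16 to 0.72). Timp1 missed the filter, at 0.37, when nonirradiated tumor 2 was left out, at 0.38 when preirradiated tumor 3 was, and at 0.34 when preirradiated tumors 1 and 3 were.

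The 5 named genes whose levels over the 8 tumors were most like the mean of the 9 scaled genes were Mfn2, Mmp2, Igfbp5, Gpc6 and Fam20a. They encode a mitochondrial fusion GTPase, the gelatinase A, an insulin-like growth factor binding protein, a glypican and a secretory pathway pseudokinase. Pearson r was 0.99 for Mfn2, 0.97 for Mmp2, 0.97 for Igfbp5, 0.96 for Gpc6 and 0.95 for Fam20a, and Spearman rho lay between 0.83 and 1. Without the 2 tumors farthest from the median of the profile, nonirradiated tumor 1 and preirradiated tumor 3, r lay between 0.87 and 0.98. They were picked from 19937 genes for this likeness on the same arrays, so these correlations are a description with no test. Their own differences ran from 0.17 for Fam20a to 0.50 for Igfbp5, and none passed the study's filter. Without preirradiated tumors 1 and 3 they ran from 0.094 for Fam20a to 0.19 for Gpc6, with Igfbp5 at 0.12.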

How the data were processed

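Whole-tumor RNA of 8 tumors was hybridised to Affymetrix Mouse Gene 1.0 ST arrays, 1 per tumor. The authors deposited 1 log2 value per probe set and array, made by RMA per the series' design text; affy and R 2.15.3 are named in the submitters' processing notes. RMA makes arrays alike in distribution, so a change in total RNA cannot be seen, and it understates changes near background. No source used here gives the chip description file. The number of arrays, 4 per group, limits the precision.

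Groups came from the titles. Preirradiated minus nonirradiated was fitted with limma 3.58.1 in R 4.3.3 (lmFit, eBayes, two-sided) to 34738 of 34760 probe sets with a mean of at least 4.0. Adjusted p-values are Benjamini-Hochberg over these. Gene names came from the platform annotation (21640 probe sets with 1 symbol, 1321 with several, 11799 with none listed); 0 symbols changed through Entrez ID. Gene pair ratios used an exact permutation test. Members and lists were chosen with earlier results of these data known. The genes named are the 9 members, 12 measured of 14 listed partners and the 5 most similar by Pearson r; others are said to be chosen afterwards. The fit was tested on simulated data.

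Alternatives were the expression limit, a second quantile normalization, median centring, the variance model, array weights, the replicate block, the probe set choice, the thresholds, and leaving out tumors. The pair ratios and their alternatives were chosen after seeing the data, so the p-values of all 3 pairs are a description.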

Additional observations from a re-analysis of the deposited data

Results flagged for a closer look

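In 42 groups of 4 tumors checked (the 9 elastic fiber genes and 12 partner genes in each group), 2 had a tumor far from the other 3, and chance alone flags about 1 in 20. Fbn2 was 6.11 in nonirradiated tumor 1 and between 6.33 and 6.36 in the other nonirradiated tumors. Leaving out the lowest nonirradiated tumor cannot make groups that are apart overlap, so it does not test their separation. The Fbn2 difference was 0.38 in the main fit and 0.32 without nonirradiated tumor 1. Fn1 was 13.18 in nonirradiated tumor 4 and between 13.03 and 13.06 in the others.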

How the results depend on the processing

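Alternatives that change only which probe sets are fitted, the variance model or the replicate block cannot move a mean difference, so no sign could turn in them. All 9 genes kept a higher mean in preirradiated tumors under each of the 18 alternatives, except Eln, which differed by -0.045 without preirradiated tumor 3 (-0.045 to 0.22 with any 1 tumor left out) and by -0.067 without preirradiated tumors 1 and 3. Their median difference was 0.11 without both of these tumors and between 0.18 and 0.36 with any 1 tumor left out. The number past the study's filter was 2 with array weights, 0 at an adjusted p of 0.05, 5 at an unadjusted p of 0.05 with no limit on the difference, and 1 to 3 with 1 tumor left out (3 without preirradiated tumor 4, when Fbn2 and Mfap4 joined Mfap5). The number with groups apart was 3 to 6 with 1 tumor left out, the highest again without preirradiated tumor 4. Leaving out a tumor cannot lower that number. Mfap5 passed the filter in all 18, and its adjusted p was never below 0.329. Signs of the difference between the groups turned for Loxl3 without preirradiated tumors 1 and 3 (0.034), for Loxl4 in that setting (-0.12), with the mean of its probe sets (-0.048) and with 1 tumor left out (-0.028 to 0.15), for Fn1 and Ltbp3 with arrays centred on their medians (-0.016 and -0.021), for Ltbp3 with 1 tumor left out (-0.016 to 0.058), for Mmp12 likewise (-0.18 to 0.12), and for the Fbln2 to Fbln1 ratio likewise (-0.055 to 0.21). Centring each array moved the median of all probe sets to -0.035. Equal numbers in the titles gave no sign of pairing: deviations of same-numbered tumors correlated between -0.29 and -0.075, and 0 of 4 preirradiated tumors matched their own number best. These values cannot exclude that tumors were paired. With the replicate block 193 probe sets passed the study's filter instead of 223, and Mfap5 still did; mean differences cannot move under it in this balanced design. Under the block the limma unadjusted p went from 0.0446 to 0.0760 for Mfap2, from 0.0172 to 0.0585 for Emilin1 and from 0.0805 to 0.0459 for Mfap4. For Eln it went from 0.631 to 0.120. The cause of these changes was not tested beyond the settings themselves.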
